A study of Homo sapiens with 5 samples.

Results

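The genes described here are 40 genes of glycolysis and of the response to low oxygen, 24 and 16 respectively, which were picked by symbol from the 23459 genes of a count table. All 40 were present in the table, and 37 had enough counts to be tested. The table holds 5 libraries of MCF10A-SAM cells. MCF10A is an established, non-transformed human mammary epithelial cell line, and the SAM derivative carries dCas9-VP64 and MCP-p65-HSF1, the components of a CRISPR activation system that raises transcription at a promoter matched by a guide RNA. Control cells carried a non-targeting guide (NTC, 3 libraries), and sgJUN#1 cells a guide to the JUN promoter (2 libraries), so that JUN is overexpressed from its own gene. Both groups therefore carry the activator proteins and differ in the guide. All cells were grown in the same medium with horse serum, insulin, hydrocortisone, cholera toxin and EGF, and the labels name no low-oxygen treatment. SAM cells were picked as single clones, the comparison rests on 1 JUN guide, and the labels do not say whether the libraries of a group came from separate cultures. The study calls its RNA-seq replicates biological, but the replicate numbers it states are not those of the libraries used here. P-values therefore measure the spread between these libraries, and how much of it is technical is not known.

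Glycolysis splits glucose into pyruvate in the cytosol. Glucose enters through SLC2A transporters, is trapped by hexokinase, is committed by phosphofructokinase and yields ATP and NADH in the later steps of the pathway, after which lactate dehydrogenase turns pyruvate into lactate for export. Many of these genes are also direct targets of the hypoxia-inducible factors (HIFs). A HIF is a dimer whose alpha subunit, HIF1A or EPAS1, is hydroxylated by EGLN enzymes and destroyed while oxygen is present. HIF activity is therefore set largely at the protein level, which RNA counts do not measure. JUN is a subunit of AP-1, a dimeric transcription factor that recognizes other DNA letters than HIF.

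JUN itself (Entrez 3725) had 25.03, 36.2 and 9.32 CPM in the NTC libraries, in the order of replicates 1 to 3, against 171.5 and 265.5 CPM in the sgJUN#1 libraries. CPM are depth-scaled counts with edgeR's TMM factors, and values are given in this order throughout. Its log2 fold change (log2FC) of sgJUN#1 over NTC, 3.25 (SE 0.48), had an adjusted p-value of 0.0733 with edgeR and 4.08e-11 with DESeq2, and the groups did not overlap. Library totals ran from 2455627 to 4988062 counts, at which 3 counts correspond to 0.619 to 1.22 CPM. Of 12 mammary epithelial markers, 12 had counts and 10 had at least 10 counts in every library, the exceptions being KRT14 and KRT17. Their summed level was 1116 to 1794 CPM in NTC, 3744 CPM in sgJUN#1 replicate 1 and 1411 CPM in replicate 2. Of 3 blood cell markers CD3E was at 0 in every library, while the sum ran from 2.04 to 25.95 CPM in NTC and from 5.72 to 6.19 CPM in sgJUN#1. The 7 fibroblast markers summed to 190.6 to 300.1 CPM in NTC and to 180.0 and 217.9 CPM in sgJUN#1, most of it PDGFRA, with COL1A2 at 0 to 1 counts. The 3 endothelial markers summed to 7.70 to 10.99 CPM in NTC and 7.51 to 9.91 CPM in sgJUN#1, and the 2 hormone receptor genes of luminal cells to 4.95 to 10.4 and 9.08 to 10.02 CPM. In bulk RNA, fewer cells of a type and less RNA per cell cannot be told apart.

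None of the 37 tested genes passed the threshold of an adjusted p-value under 0.05 with edgeR's quasi-likelihood test over all 13616 tested genes, of which 28 (0.206%) passed, 0.0808% with higher and 0.125% with lower means in sgJUN#1. The adjusted p-values of the members ran from 0.352 for PFKM to 0.991 for SLC16A3. At an unadjusted p-value under 0.05 edgeR called 6 of 37 members (16.2%), against 8.38% of all tested genes. Of these, 4 (10.8%) were higher and 2 (5.41%) lower, against 4.02% and 4.36% of all genes. They were the hexokinase HK2, the phosphofructokinase PFKM, the carbonic anhydrase CA12 and the collagen hydroxylase P4HA2, with higher means in sgJUN#1, and the HIF subunit EPAS1 and the stress gene NDRG1, with lower means. DESeq2 called 0 members after adjustment, against 1.05% of all genes, and 6 before it, against 6.46%. The limma-voom test called 0 after adjustment, against 0.147%, and 8 before it, against 8.42%.

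The median log2FC of the tested members was 0.13, and that of all tested genes was -0.01. The median was 0.18 over 23 glycolysis genes and -0.02 over 14 hypoxia genes. The latter depended on single libraries and was 0.15 without sgJUN#1 replicate 1, 0.08 without NTC replicate 3 and -0.10 without sgJUN#1 replicate 2. The estimate was above 0 for 22 of 37 members, against 49% of all tested genes. The sgJUN#1 pair lay outside the NTC range for 10 of 37 members (27.03%), against 25% of all genes. They lay above it for 8 genes (HK2, PFKM, PFKP, PGK1, HIF1A, ANKRD37, P4HA2 and ANGPTL4), against 12.2%, and below it for EPAS1 and NDRG1, against 12.8%.

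To show what letters the promoters of these genes carry for HIF and for JUN dimers, RefSeq windows from 250 bases before to 50 bases after an annotated start were searched on both strands (build GRCh38.p14). Windows were found for 35 of the 40 members, 63 windows in all, some of which overlap. The core letters bound by HIF, ACGTG or GCGTG, were in 43 of 63 windows (68.3%) and in 48.4% of all 35116 windows. None of the letter sets contains another, and a CACGTG reads as ACGTG on either strand. The AP-1 letters TGAGTCA were in 5 of 63 windows (7.94%), belonging to CA9, ENO2, HK1 and KDM3A, and in 4.95% of all windows. The letters TGACGTCA, recognized by JUN dimers with ATF proteins, were in 1 window (1.59%), that of LDHA, against 1.85% of all windows. A match is a run of letters and does not show that a factor was bound. The letters are given here for the LDHA window (chr11:18394313-18394612), the CA9 window (chr9:35673678-35673977) and the ENO2 window (chr12:6914330-6914629), which hold letters of both kinds. A KDM3A window (chr2:86441211-86441510) also holds both kinds and is not printed. For comparison an HK2 window (chr2:74834920-74835219), which holds HIF letters only and belongs to the glycolysis gene with the highest estimate, and the EPAS1 window (chr2:46297157-46297456) are given. All 5 printed windows lie on the plus strand, and matched letters are in capitals.
LDHA: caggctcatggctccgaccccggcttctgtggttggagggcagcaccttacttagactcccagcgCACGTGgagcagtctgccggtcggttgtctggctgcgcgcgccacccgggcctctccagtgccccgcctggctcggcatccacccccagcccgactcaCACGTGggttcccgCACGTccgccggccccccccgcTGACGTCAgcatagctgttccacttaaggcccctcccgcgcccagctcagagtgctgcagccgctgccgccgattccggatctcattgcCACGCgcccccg
CA9: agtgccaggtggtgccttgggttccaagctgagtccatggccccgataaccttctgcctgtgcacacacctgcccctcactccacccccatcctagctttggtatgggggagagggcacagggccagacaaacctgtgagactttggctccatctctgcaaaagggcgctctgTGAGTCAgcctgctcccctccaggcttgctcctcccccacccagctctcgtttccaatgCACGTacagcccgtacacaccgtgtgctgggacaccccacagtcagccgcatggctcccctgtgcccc
ENO2: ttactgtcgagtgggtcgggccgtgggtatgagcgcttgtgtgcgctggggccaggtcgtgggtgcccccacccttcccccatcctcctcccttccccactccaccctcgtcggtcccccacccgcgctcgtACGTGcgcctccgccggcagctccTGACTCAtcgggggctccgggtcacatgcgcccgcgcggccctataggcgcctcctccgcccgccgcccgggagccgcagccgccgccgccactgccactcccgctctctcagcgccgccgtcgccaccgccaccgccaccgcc
HK2: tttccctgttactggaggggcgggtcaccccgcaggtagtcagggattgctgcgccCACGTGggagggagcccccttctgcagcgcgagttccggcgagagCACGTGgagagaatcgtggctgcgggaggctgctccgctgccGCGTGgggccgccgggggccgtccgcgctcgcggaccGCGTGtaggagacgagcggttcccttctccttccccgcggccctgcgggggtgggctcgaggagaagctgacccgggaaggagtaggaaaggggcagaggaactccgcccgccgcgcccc
EPAS1: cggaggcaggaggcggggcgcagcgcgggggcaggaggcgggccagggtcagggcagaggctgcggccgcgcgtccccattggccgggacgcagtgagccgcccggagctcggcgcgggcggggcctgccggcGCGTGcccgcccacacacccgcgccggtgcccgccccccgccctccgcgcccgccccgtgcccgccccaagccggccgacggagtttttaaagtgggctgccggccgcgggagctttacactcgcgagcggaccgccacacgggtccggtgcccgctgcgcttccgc
Of the 4 genes with AP-1 letters, ENO2, HK1 and KDM3A had log2FCs of 0.47, -0.06 and -0.28, with edgeR adjusted p-values of 0.7985 to 0.963, and CA9 was hardly counted.

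The first steps of glucose use were examined next. SLC2A1, the main glucose transporter of epithelial cells, stood at 29.7, 26.05 and 32.6 CPM in the NTC libraries against 26.6 and 15.03 CPM in the sgJUN#1 libraries. Only sgJUN#1 replicate 2 lay below the NTC range, and the log2FC of -0.48 (SE 0.29) had an edgeR adjusted p-value of 0.703. It was -0.14 without sgJUN#1 replicate 2 and -0.97 without replicate 1. SLC2A3, a transporter with high affinity for glucose, had 3, 0 and 7 counts in NTC and 5 and 0 in sgJUN#1, which was too few for a test.

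Hexokinase, which phosphorylates glucose and so keeps it in the cell, is made from separate genes with separate regulation. HK2 (Entrez 3099, GRCh37 chromosome 2, 75061254 to 75120486), the inducible form, stood at 13.8, 14.7 and 6.88 CPM in the NTC libraries against 26.8 and 18.96 CPM in the sgJUN#1 libraries. The means were 11.8 ± 4.25 CPM (SD, n = 3) and 22.9 ± 5.56 CPM (SD, n = 2), a fold of 2 or a log2FC of 1.00 (SE 0.35, edgeR unadjusted p-value 0.0178 and adjusted p-value 0.459). The groups did not overlap, but NTC replicate 3 was low, and the log2FC was 0.71 without either NTC replicate 3 or sgJUN#1 replicate 1. HK1, the constitutive form, was level across the libraries, at 72.3, 77.3 and 77.6 CPM in the NTC libraries against 76.99 and 68.3 CPM in the sgJUN#1 libraries, with a log2FC of -0.06 and a 95% interval from -0.48 to 0.37.

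Phosphofructokinase, the committed step, is encoded by muscle, liver and platelet type genes. PFKM, the muscle type (Entrez 5213, GRCh37 chromosome 12, 48498922 to 48540187), had 107.3, 99.7 and 147.3 CPM in the NTC libraries against 179.8 and 220.04 CPM in the sgJUN#1 libraries. No NTC library reached the sgJUN#1 pair, with means of 118.1 ± 25.6 CPM (SD, n = 3) and 199.9 ± 28.5 CPM (SD, n = 2). For PFKM the log2FC was 0.76 (SE 0.23, 95% interval 0.25 to 1.26), with an edgeR unadjusted p-value of 0.00793 and an adjusted p-value of 0.352. SENP1 lies antisense to part of PFKM and had 599 counts over the 5 libraries against 2785 for PFKM. How reads on the opposite strand were counted is not given in the sources used here. The platelet type PFKP had 117.4, 121.3 and 86.3 CPM in the NTC libraries against 122.6 and 125.2 CPM in the sgJUN#1 libraries, a small difference in which NTC replicate 3 was the low library. PFKL, the liver type, had 14.9, 20.8 and 19.3 CPM in the NTC libraries against 16.5 and 15.4 CPM in the sgJUN#1 libraries, which overlapped.

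For the remaining genes of the upper pathway and its regulators the groups overlapped. They were GPI, the isomerase, and the aldolases ALDOA and ALDOC, which cleave the phosphorylated sugar. Their log2FCs were -0.14, -0.10 and -0.18. PFKFB3 and PFKFB4, which set the level of an activator of phosphofructokinase, had 0.15 and 0.44. ALDOC and PFKFB4 rested on 47 and 57 counts over all libraries, and their estimates changed sign, to 0.34 for ALDOC without sgJUN#1 replicate 1 and to -0.27 for PFKFB4 without sgJUN#1 replicate 2. The gene RSKR, which overlaps ALDOC on the same strand, had 348 counts.

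The genes of the lower steps, from TPI1 to PKM, had no calls. Their estimates were above 0 for 7 of 7 tested genes, against 49% of all tested genes. Over the 7 tested genes the median log2FC was 0.27, with values from 0.01 for GAPDH to 0.47 for ENO2, and 0 of 7 reached an unadjusted p-value under 0.05 with edgeR, against 8.38% of all genes. Without NTC replicate 1, TPI1, PGK1 and ENO1 had unadjusted p-values of 0.0148, 0.0460 and 0.0426 in the edgeR fit, with adjusted p-values of 0.438 to 0.498. GAPDH, the dehydrogenase that makes NADH and a common reference gene, stood at 712.4, 712.3 and 851.8 CPM in the NTC libraries against 782.03 and 746.7 CPM in the sgJUN#1 libraries. Its log2FC of 0.01 had a 95% interval from -0.40 to 0.42, and its sign turned with scaling by total counts alone (-0.01) and without NTC replicate 1 (-0.04), NTC replicate 2 (-0.03) or sgJUN#1 replicate 1 (-0.02). RefSeq names 65 GAPDH pseudogenes, none of them in the table, so reads shared with such copies could not be followed.

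PGK1, which makes the first ATP of the pathway, stood at 750.1, 621.5 and 426.99 CPM in the NTC libraries against 753.8 and 760.3 CPM in the sgJUN#1 libraries. The sgJUN#1 libraries lay just above NTC replicate 1, and most of the estimate of 0.34 (SE 0.24) came from the low NTC replicate 3, without which it was 0.14. The same library was the lowest of the 5 for TPI1, PGAM1 and the enolase ENO1, whose log2FCs were 0.38, 0.27 and 0.27. PKM, the pyruvate kinase, had 0.08. For PGAM1, the mutase, the count is uncertain, since the treatment of reads that map to several copies is not given. The copy PGAM1P in the table had 394 counts, 30.4% of the 1294 of PGAM1, and the related gene PGAM4 had 318. PGK1, TPI1, PGAM1, ENO1 and PKM had edgeR adjusted p-values of 0.758 or more.

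The fate of pyruvate is set by lactate dehydrogenase, by the lactate carriers and by the kinase PDK1, which shuts pyruvate out of the mitochondrial dehydrogenase. LDHA, a classical HIF target, stood at 3060.8, 2593.9 and 2268.7 CPM in the NTC libraries against 3035.1 and 2747.1 CPM in the sgJUN#1 libraries. The sgJUN#1 values lay within the NTC range, and the log2FC was 0.13 (SE 0.19, 95% interval -0.29 to 0.55, edgeR adjusted p-value 0.901). LDHB, the subunit that favours the reverse reaction, had 0.18. The carriers SLC16A1 and SLC16A3 had 0.22 and -0.01, and PDK1 had 0.28. None of these 5 genes separated the groups. SLC16A3 overlaps CSNK1D on the opposite strand, which had 2596 counts against 1470.

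Summed over the 23 tested glycolysis genes, the libraries carried 8430, 7334 and 6583 CPM in NTC and 8572 and 8102 CPM in sgJUN#1. The groups overlapped, and sgJUN#1 replicate 2 lay below NTC replicate 1. The 14 tested hypoxia genes summed to 1887, 2003 and 1778 CPM in NTC and to 2325 and 2562 CPM in sgJUN#1, and all 37 members to 10317, 9338 and 8361 CPM and to 10897 and 10664 CPM. These sums did not overlap between the groups, and highly counted genes weigh most in them, HIF1A and ANGPTL4 in the case of the hypoxia genes.

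Of the hypoxia genes, the HIF alpha subunits themselves gave estimates of opposite sign. HIF1A (Entrez 3091, GRCh37 chromosome 14, 62162231 to 62214977), the widely used alpha subunit, stood at 983.6, 1039.1 and 846.7 CPM in the NTC libraries against 1144.05 and 1422.6 CPM in the sgJUN#1 libraries. The groups did not overlap, with a log2FC of 0.42 (SE 0.19, edgeR unadjusted p-value 0.0511 and adjusted p-value 0.599), which was 0.26 without sgJUN#1 replicate 2. EPAS1 (Entrez 2034, GRCh37 chromosome 2, 46520806 to 46613836), which encodes the other HIF alpha subunit, stood at 225.5, 214.9 and 264.2 CPM in the NTC libraries against 152.9 and 164.2 CPM in the sgJUN#1 libraries. Here the sgJUN#1 pair lay below every NTC library, and the means were 234.9 ± 25.9 CPM (SD, n = 3) and 158.6 ± 7.98 CPM (SD, n = 2). For EPAS1 the log2FC was -0.57 (SE 0.20, 95% interval -1.01 to -0.13, edgeR unadjusted p-value 0.0166 and adjusted p-value 0.459). It ran from -0.63 to -0.47 over 13 alternative fits.

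The EGLN enzymes hydroxylate these subunits in an oxygen-dependent manner, and EGLN3 is itself a HIF target. EGLN1, the main form, had a log2FC of -0.02 (95% interval -0.46 to 0.43), and the groups overlapped. EGLN3 had 2, 6 and 2 counts in NTC and 1 and 1 in sgJUN#1 and was not tested. SPTSSA, which overlaps it on the same strand, had 2640 counts.

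Of the genes commonly used to read HIF activity, CA9 was hardly counted and VEGFA was level between the groups. CA9, a carbonic anhydrase whose mRNA is close to absent in many cells until HIF is active, had 0, 0 and 0 counts in NTC and 1 and 0 in sgJUN#1. A count of 0 allows for up to 3 counts, which is 0.665 to 1.22 CPM in the libraries where CA9 had 0 and covers counting error only. VEGFA, the vascular growth factor, stood at 37.7, 35.4 and 31.9 CPM in the NTC libraries against 33.4 and 35.8 CPM in the sgJUN#1 libraries. The values were interleaved, with a log2FC of -0.02 (95% interval -0.49 to 0.46). ADM, which encodes the vasodilator peptide adrenomedullin, had 31.4, 37.9 and 48.6 CPM in the NTC libraries against 22.9 and 33.3 CPM in the sgJUN#1 libraries. Its log2FC was -0.50 (SE 0.27, edgeR adjusted p-value 0.68), with NTC replicate 3 highest and an overlap between the groups. It was -0.24 without sgJUN#1 replicate 1, -0.31 without NTC replicate 3 and -0.77 without sgJUN#1 replicate 2.

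ANGPTL4, a secreted inhibitor of lipoprotein lipase, varied widely within the NTC group. It stood at 144.1, 299.96 and 54.6 CPM in the NTC libraries against 587.2 and 379.3 CPM in the sgJUN#1 libraries. The sgJUN#1 pair was above every NTC library, of which replicate 2 was highest and replicate 3 lowest. A log2FC of 1.55 (SE 0.65, 95% interval -0.03 to 3.13) had an edgeR unadjusted p-value of 0.0535 and an adjusted p-value of 0.605. It was 2.29 without NTC replicate 2 (edgeR adjusted p-value 0.0881) and 1.13 without NTC replicate 3. HK2, P4HA2 and ANGPTL4 were all highest in sgJUN#1 replicate 1, the library with the highest epithelial marker sum (3744 CPM). That library was the highest for 8 of 37 members (21.6%), against 19% of all tested genes. The part of the epithelial markers in the values of HK2, P4HA2 and ANGPTL4 was not tested.

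CA12, a carbonic anhydrase of the cell surface, had 26.1, 28.5 and 43.03 CPM in the NTC libraries against 40.5 and 110.6 CPM in the sgJUN#1 libraries. The groups overlapped, since sgJUN#1 replicate 1 was below NTC replicate 3, and the difference lay in sgJUN#1 replicate 2. Its log2FC of 1.19 (SE 0.40, edgeR unadjusted p-value 0.0174 and adjusted p-value 0.459) was 0.32 without that library.

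NDRG1 (Entrez 10397, GRCh37 chromosome 8, 134249418 to 134314265), a stress-responsive gene induced by hypoxia and in differentiating epithelia, stood at 62.2, 36.6 and 144.2 CPM in the NTC libraries against 28.7 and 26.5 CPM in the sgJUN#1 libraries. The sgJUN#1 pair lay below all NTC libraries, which were widely spread. A log2FC of -1.56 (SE 0.54, 95% interval -2.83 to -0.30) had an edgeR unadjusted p-value of 0.0219 and an adjusted p-value of 0.489, and it was -0.85 without NTC replicate 3. The DESeq2 adjusted p-value of NDRG1, 0.0547, was the lowest of any member under any of the 14 fits. The blood cell markers were also highest in NTC replicate 3, at 25.95 CPM. Of this CD14 made up 23.7 CPM, with CD3E at 0 and PTPRC at 2.22 CPM. The fibroblast and hormone receptor sums were highest there too, at 300.1 and 10.4 CPM, while the epithelial and endothelial sums were not. NTC replicate 3 was the highest library for 29.8% of all tested genes. The part of any of these markers in the NDRG1 value was not tested.

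The mitophagy receptors BNIP3 and BNIP3L had log2FCs of -0.19 and -0.04. RefSeq names 46 BNIP3 pseudogenes, none of them in the table. ANKRD37, a HIF target that encodes an ankyrin repeat protein, had 16.8, 17.1 and 16.2 CPM in the NTC libraries against 20.8 and 21.1 CPM in the sgJUN#1 libraries. The groups were apart by a small step, with a log2FC of 0.33 (SE 0.24, edgeR adjusted p-value 0.758). UFSP2 lies antisense to it and had 472 counts against 336.

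P4HA1 and P4HA2 encode catalytic subunits of the collagen prolyl hydroxylase, and KDM3A a histone demethylase. All 3 enzymes need oxygen to work, and their genes are known HIF targets. P4HA2 (Entrez 8974, GRCh37 chromosome 5, 131525840 to 131631008) stood at 23.9, 26.05 and 14.2 CPM in the NTC libraries against 42.5 and 37.2 CPM in the sgJUN#1 libraries. Again no NTC library reached the sgJUN#1 pair, with means of 21.4 ± 6.32 CPM (SD, n = 3) and 39.9 ± 3.75 CPM (SD, n = 2). For P4HA2 the log2FC was 0.92 (SE 0.28, 95% interval 0.28 to 1.55), with an edgeR unadjusted p-value of 0.00961 and an adjusted p-value of 0.372. The genes PDLIM4 and SLC22A4 lie antisense to parts of P4HA2 and had 658 and 1326 counts against 525. P4HA1 had a log2FC of 0.13. KDM3A stood at 39.9, 29.3 and 35.7 CPM in the NTC libraries against 24.8 and 33.3 CPM in the sgJUN#1 libraries, which overlapped, with a log2FC of -0.28 (SE 0.25) that was -0.08 without sgJUN#1 replicate 1, -0.18 without NTC replicate 1 and -0.50 without sgJUN#1 replicate 2.

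**Figure D1:**
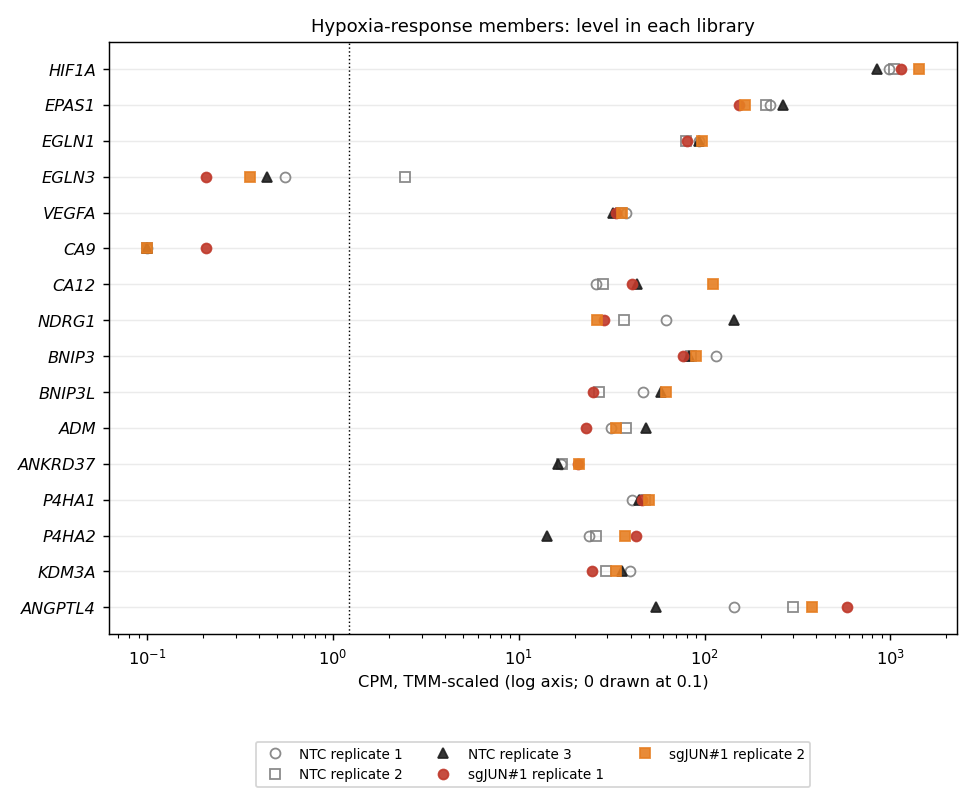
Level of each of the 16 hypoxia-response genes in each library, in TMM-scaled CPM on a log axis, with open and black symbols for the 3 NTC libraries and red and orange symbols for the 2 sgJUN#1 libraries. The dotted line marks 1.22 CPM, the level of 3 counts in the smallest library, and a count of 0 is drawn at 0.1. EPAS1 and NDRG1 have both sgJUN#1 symbols on the left, HIF1A, ANKRD37, P4HA2 and ANGPTL4 on the right, and CA9 and EGLN3 lie mostly below the line.

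The intervals say how large a difference these libraries leave room for. The 95% interval lay within 2-fold in either direction for 23 of 37 members, 16 of the 23 glycolysis genes and 7 of the 14 hypoxia genes, against 59.4% of all tested genes. It left out 0 for 6 members, by construction the same 6 that had an edgeR unadjusted p-value under 0.05. An absolute log2FC of at least 1 was seen for HK2, CA12, NDRG1 and ANGPTL4, 4 of 37 members, against 4.94% of all genes.

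**Figure D2:**
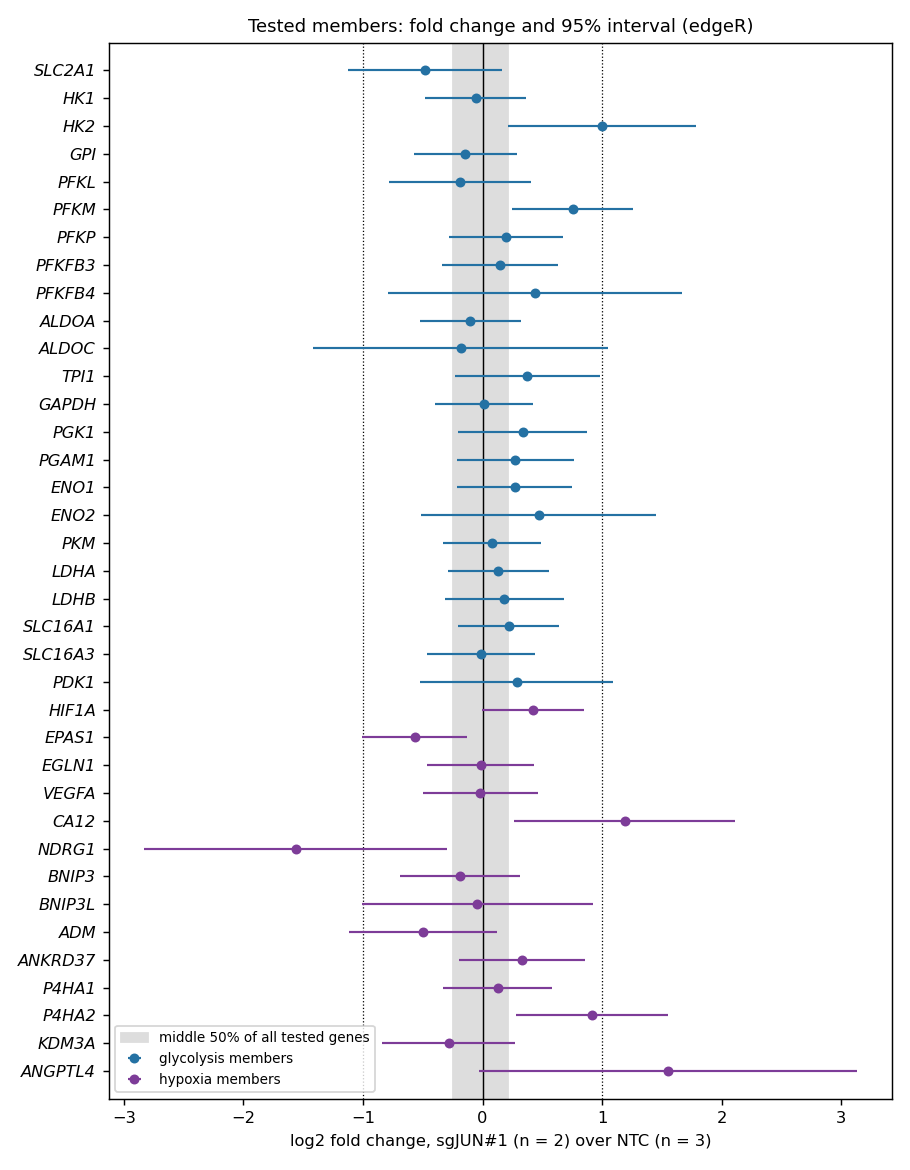
Log2FC of sgJUN#1 (n = 2) over NTC (n = 3) for the 37 tested members, with points for the edgeR estimate, bars for its 95% interval, blue for glycolysis and purple for hypoxia genes. The grey band holds the middle 50% of all tested genes and the dotted lines mark 2-fold. Most bars cross 0 and stay between the dotted lines, while those of HK2, PFKM, CA12 and P4HA2 lie right of 0 and those of EPAS1 and NDRG1 left of it.

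Where a step of the pathway can be run by more than 1 gene, the log2 ratio of the pair within a library was compared between groups for 11 pairs of tested genes. CPM of different genes were not compared as levels, and the ratio serves only to set libraries side by side. The HK2 to HK1 ratio was -2.38, -2.38 and -3.48 in NTC and -1.52 and -1.84 in sgJUN#1, a mean difference of 1.07. The balance was thus further towards HK2 in both sgJUN#1 libraries. The EPAS1 to HIF1A ratio was -2.12, -2.27 and -1.68 in NTC and -2.90 and -3.11 in sgJUN#1, a mean difference of -0.98. The ratio of PFKM to PFKL differed by 0.96 and that of P4HA2 to P4HA1 by 0.81, both with the sgJUN#1 libraries above the NTC libraries. The ratio of SLC16A3 to SLC16A1 differed by -0.23 and lay below. The other 6 pairs overlapped between the groups. Of the 11 pairs, 3 thus lay above and 2 below, where 25% of all single tested genes did not overlap. The share over pairs of other genes was not measured. HK2, PFKM, P4HA2, HIF1A and EPAS1 were also apart as single genes, so their ratios largely repeat those values. With 3 against 2 libraries the smallest two-sided p-value of an exact permutation test is 0.1, so no test was made.

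The libraries were also compared with each other over the members. NTC replicate 3 was the lowest of the 5 libraries for 16 of 37 members (43.2%), 11 of them glycolysis genes, against 27.5% of all tested genes. It was the highest library for 6 of 37 members (16.2%), against 29.8% of all tested genes. With single libraries left out, the median log2FC of the glycolysis genes, 0.18 with all of them, was 0.10 without NTC replicate 3, 0.12 without sgJUN#1 replicate 1, 0.19 without sgJUN#1 replicate 2, 0.20 without NTC replicate 2 and 0.26 without NTC replicate 1.

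**Figure D3:**
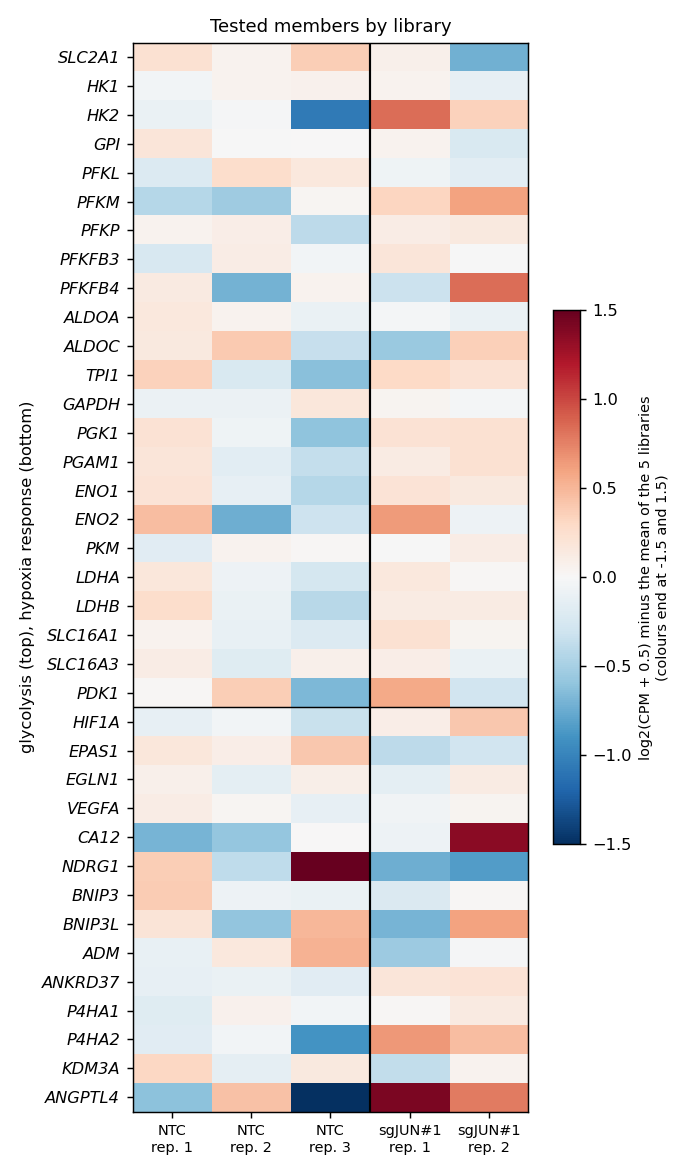
Each tested member in each library as log2(CPM + 0.5) minus the mean of the 5 libraries, in red above and blue below that mean, with colours ending at -1.5 and 1.5. NTC libraries are left and sgJUN#1 libraries right of the vertical line, and glycolysis genes lie above the horizontal line. NTC replicate 3 is blue for many glycolysis genes and dark red for NDRG1, and CA12 is darkest in sgJUN#1 replicate 2.

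The 8 members that had an unadjusted p-value under 0.05 in limma-voom were HK2, PFKM, HIF1A, EPAS1, CA12, NDRG1, P4HA2 and ANGPTL4. With 1 library left out, the log2FC of PFKM ran from 0.61 to 0.95, that of HK2 from 0.71 to 1.22 and that of P4HA2 from 0.68 to 1.07. The values of CA12 ran from 0.32 to 1.76 and those of NDRG1 from -1.90 to -0.85.

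**Figure D4:**
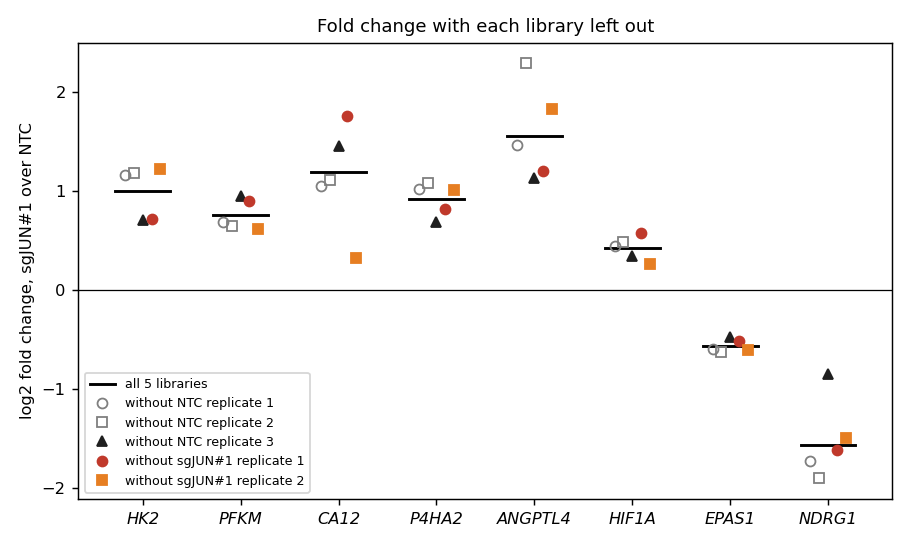
Log2FC of 8 members with all 5 libraries (black bar) and with each library left out in turn (symbols as named in the key), from edgeR fits over all genes. The symbols farthest from their bar are CA12 without sgJUN#1 replicate 2 at 0.32, ANGPTL4 without NTC replicate 2 at 2.29 and NDRG1 without NTC replicate 3 at -0.85.

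Further genes of the same pathways were counted from 6 lists with 113 genes, of which 92 were tested. With edgeR, 0 of 92 passed after adjustment and 15 had an unadjusted p-value under 0.05, against 8.38% of all genes, 6 with a higher and 9 with a lower mean in sgJUN#1, while after adjustment limma-voom called 0, against 0.147% of all genes, and DESeq2 called 5, against 1.05%. The groups did not overlap for 28 of 92, against 25% of all genes. The median log2FC was -0.03.

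Of the 92 genes, those with the largest differences in either direction were UGP2 and PDK4, both at branches from glycolysis. UGP2, which makes UDP-glucose for glycogen and glycoprotein sugars, stood at 73.99, 137.6 and 68.98 CPM in the NTC libraries against 272.6 and 583.2 CPM in the sgJUN#1 libraries, with a log2FC of 2.20 (SE 0.39, edgeR adjusted p-value 0.102). Both sgJUN#1 libraries were above all NTC libraries. PDK4, a kinase that inhibits pyruvate dehydrogenase and is induced in fasting, stood at 91.04, 49.7 and 220.3 CPM in the NTC libraries against 12.8 and 11.4 CPM in the sgJUN#1 libraries, at a log2FC of -3.31 (SE 0.68, edgeR adjusted p-value 0.213). The groups did not overlap, and NTC replicate 3 was the highest library. For the related PDK1 the groups overlapped. By DESeq2 both passed the threshold, with adjusted p-values of 2.43e-06 for UGP2 and 5.77e-09 for PDK4.

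The pentose phosphate branch makes NADPH and ribose from glucose phosphate. With edgeR 0 of its 7 tested genes passed after adjustment, and TKT and PGD had unadjusted p-values of 0.00331 and 0.0114, each with both sgJUN#1 values under the NTC range. TKT, the transketolase, stood at 1248.5, 1339.9 and 2071.5 CPM in the NTC libraries against 881.3 and 622.9 CPM in the sgJUN#1 libraries, at a log2FC of -1.05 (SE 0.27, adjusted p-value 0.264 with edgeR and 0.0408 with DESeq2). PGD, an NADPH-producing dehydrogenase, had 59.7, 54.5 and 58.1 CPM in the NTC libraries against 39.8 and 33.3 CPM in the sgJUN#1 libraries, at a log2FC of -0.65 (SE 0.21, edgeR adjusted p-value 0.404).

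Counts of genes with an unadjusted p-value under 0.05 with edgeR are to be read against 8.38% of all tested genes. Of the HIF machinery 0 of 12 tested genes were under 0.05. CITED2, a HIF target that competes for the coactivators of HIF, and CREBBP, one of those coactivators, had log2FCs of -1.05 (SE 0.71, 95% interval -2.73 to 0.62) and -0.26 (SE 0.21). The value of CITED2 was -0.30 without sgJUN#1 replicate 1 and -2.32 without sgJUN#1 replicate 2, and that of CREBBP -0.12 without NTC replicate 3. Of 36 further hypoxia-response genes 5 were under 0.05, 2 with higher and 3 with lower means. STC1, a secreted glycoprotein, had 15.1, 34.2 and 10.9 CPM in the NTC libraries against 53.5 and 61.2 CPM in the sgJUN#1 libraries, at a log2FC of 1.56 (adjusted p-value 0.281 with edgeR and 0.0299 with DESeq2). LRP1, a large endocytic receptor, had 19.5, 14.7 and 29.5 CPM in the NTC libraries against 3.10 and 9.66 CPM in the sgJUN#1 libraries, at a log2FC of -1.85 (adjusted p-value 0.281 with edgeR and 0.0360 with DESeq2). Among further glycolysis genes 3 of 15 reached the unadjusted threshold, led by the transporter SLC2A12 with -1.37 and BPGM, a bisphosphoglycerate mutase, with 0.90. Of 7 glycogen genes 3 reached it, and of 15 genes of pyruvate entry and gluconeogenesis only PDK4. The remaining leading genes of these lists were G6PC3, a glucose phosphatase, with -0.55, and PPP1R3B, which brings a phosphatase to glycogen, with 0.99.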

How the data were processed

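RNA of MCF10A-SAM cells was measured by 3′ mRNA sequencing (QuantSeq FWD, per the labels) in 3 NTC and 2 sgJUN#1 libraries. The authors deposited raw read counts per Entrez gene. The submitters' processing notes name hg19, cutadapt 4.2 and Bowtie2 2.3.5.1, and the study's methods state that reads over genes were counted with countOverlaps. Annotation, strand handling and the treatment of reads that map to several copies are not given in the sources used here.

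Library totals were 2455627 to 4988062 counts. Symbols were found for 23308 of 23459 genes. Genes under edgeR's filterByExpr minimum were left out, and 13616 were tested with edgeR 4.0.16 (TMM, robust glmQLFit, glmQLFTest) in R 4.3.3, with p-values adjusted over all of them by the Benjamini-Hochberg method and a threshold of 0.05. The SE is the log2 fold change divided by the root of its F value, and the 95% interval follows from it. The study's own tool, DESeq2 (1.42.0), limma-voom (3.58.1), other scalings and filters, a replicate block and leaving out each library were alternatives. Log2 ratios of gene pairs used a prior count of 0.5. The script was tested on simulated data.

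The members, the other gene lists and the markers were chosen with earlier results of these data known. Values in every library are given for members with an unadjusted p-value under 0.05, the 5 highest and 5 lowest log2 fold changes, HIF1A, EPAS1, VEGFA, CA9, SLC2A1, HK2, GAPDH and LDHA, and members whose groups did not overlap, and 2 genes per other list by p-value are named. The last group of members and HK1 and PFKL were named after values were seen. Gene positions are from GENCODE on GRCh37, and promoter windows from RefSeq on GRCh38.p14.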

Additional observations from a re-analysis of the deposited data

How the results depend on the processing

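The count of 0 members past the threshold was the same in all 13 alternatives, and of 478 member estimates under them 456 kept their sign. The count over all genes, 28, was 143 with DESeq2, 148 with no filter, 18 where every library needed 10 counts, and 10 to 57 with 1 library left out. Of the other pathway genes 5 were called by DESeq2, 1 with no filter and 0 to 3 with 1 library left out. JUN passed with DESeq2 (log2 fold change 3.24), limma-voom (3.47), with the replicate block, and without NTC replicate 2 or 3, and ran from 2.84 to 3.68 with 1 library left out. The median of the hypoxia genes ran from -0.10 to 0.15 in those fits. Other filters changed how many genes entered the fit by construction, and otherwise the cause was not tested.

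Both groups hold replicates numbered 1 and 2, but no label ties a number to a shared batch. The library identifiers are consecutive for the 2 libraries of replicate 1 and for those of replicate 2, and what this order stands for is not stated. The difference between replicates 1 and 2 correlated between the groups at 0.0206 over genes. With 2 such pairs the libraries were treated as unpaired. A fit with the replicate block gave 103 calls over all genes, 0 among the members and 2 among the other pathway genes, with JUN past the threshold at 2.82 (edgeR adjusted p-value 1.15e-04, against 0.0733 without the block) and a median of the hypoxia genes of 0.065. Replicate 3 occurs only in NTC, so in the block fit NTC replicate 3 has a term of its own and does not inform the group estimates. The block fit is therefore close to the fit without NTC replicate 3, where JUN was at 2.84 and the median of the hypoxia genes at 0.077. With the block the sign turned for SLC16A3 (0.029), PDK1 (-0.0046), EGLN1 (0.021) and BNIP3L (0.11).

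The sign turned in some alternative for 9 members. Most of these had estimates near 0 in the full fit, but PFKFB4, PDK1 and ALDOC were at 0.44, 0.28 and -0.18. With library size alone GAPDH was at -0.0063. With 1 library left out, the log2 fold changes ran from -0.15 to 0.030 for HK1, -0.27 to 1.04 for PFKFB4, -0.75 to 0.34 for ALDOC, -0.035 to 0.10 for GAPDH, -0.12 to 0.090 for SLC16A3, -0.24 to 0.64 for PDK1, -0.15 to 0.12 for EGLN1, -0.083 to 0.039 for VEGFA and -0.82 to 0.49 for BNIP3L. Where an arm is left with 1 library, that library is assumed to vary like the other group. At totals of 2455627 to 4988062 counts, SLC2A3, EGLN3 and CA9 had too few counts for a comparison.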
